A study of Homo sapiens with 21 samples.

Results

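The transcripts described here are those of 10 genes that control passage through the G1 phase of the cell cycle. They are the D-type cyclins CCND1, CCND2 and CCND3, the E-type cyclins CCNE1 and CCNE2, the kinases CDK4 and CDK6 that D-type cyclins activate, and the Cip/Kip inhibitors CDKN1A (p21), CDKN1B (p27) and CDKN1C (p57). They were taken by symbol from a count table of 57820 genes, and all 10 were among the 30549 genes tested (mean count of 1 or more per library). RNA-seq was done on 21 libraries of A673, an established line of Ewing sarcoma cells that carries the EWS/FLI fusion oncogene, in 7 groups of 3. iLuc cells received an shRNA against luciferase and an empty vector and kept the endogenous fusion. iEF cells received an shRNA against the fusion transcript and an empty vector, and are the baseline of the design. The other groups were depleted in the same way and then given FLAG-tagged cDNAs, namely full-length EWS/FLI (WT-EF), a form that lacks the EWS part (Δ22), one of full length in which alanine replaces EWS tyrosines (DAF), a form with most of the EWS domain deleted (mut9), or tyrosine substitutions placed in that shortened form (DAF-mut9). All 7 groups thus went through retroviral delivery of an shRNA on day 1 and of a cDNA or empty vector on day 5, and through puromycin and hygromycin selection until day 16. All values come from 1 cell line and from constructs expressed from a retroviral vector. The p-values measure the spread between replicate libraries after shifts between replicate sets (libraries with the same replicate number) were fitted. Each gene has 1 estimate of this spread, shared by the 7 groups. The methods describe repeated knockdown and rescue experiments, while the labels give only a replicate number. The count columns called mut9d were taken to be DAF-mut9, on which every DAF-mut9 value depends.

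D-type cyclins bind CDK4 and CDK6, and the complexes phosphorylate the retinoblastoma protein and so free E2F factors to drive genes for DNA synthesis. Cyclin E, itself an E2F target, then activates CDK2 and completes the step into S phase. Cip/Kip proteins bind cyclin-CDK complexes and block CDK2, whereas INK4 proteins bind CDK4 and CDK6 alone. CDKN1A is induced by DNA damage and by many other signals. A673 cells are known to lack the INK4 gene CDKN2A.

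Library totals were 32.9 to 46.2 M counts, so that 1 CPM (the count divided by the TMM-adjusted library size in M) stood for 32.0 to 45.2 counts. FLI1, whose count includes the fusion and the constructs, was at 20.8, 20.02 and 21.1 CPM in the 3 iEF libraries, against 61.3, 60.6 and 89.05 CPM in iLuc. It was at 21.9, 25.2 and 26.5 CPM in WT-EF, a log2 difference from iEF of 0.24 ± 0.13 (SE) that did not pass the test (edgeR adjusted p = 0.196). Per the paper the shRNA targets the 3′UTR of the fusion transcript. Construct and endogenous transcripts may thus not be counted over the same bases, so their FLI1 levels cannot be compared directly. FLI1 was higher in the other rescue groups, from 28.3 CPM in a mut9 library to 62.00 CPM in a Δ22 library, and the part of construct level in the differences between constructs was not tested. Of 7 Ewing sarcoma markers, 6 were higher in iLuc than in iEF, 6 in WT-EF, 5 in mut9 and 4 in DAF, 1 was lower in Δ22 and 1 in DAF-mut9, and CD99 had at most 8 counts in a library. Of all genes tested, 18.7% were higher in iLuc, 11.4% in WT-EF, 6.22% in mut9 and 3.41% in DAF. The shares that were lower were 1.79% in Δ22 and 2.14% in DAF-mut9. Among markers of leukocytes, epithelium and endothelium, PECAM1 was not matched, CD3E had 2 counts in all, and PTPRC, EPCAM and CDH1 stayed below 1 CPM in every library, although EPCAM passed as higher in iLuc. CDH5 reached 1.02 CPM. KRT18, which many cultured cells express, was at 28.5 to 34.5 CPM in iLuc, 37.98 to 41.9 CPM in iEF, 31.8 to 38.5 CPM in WT-EF, 35.2 to 54.4 CPM in mut9, 47.3 to 62.9 CPM in DAF-mut9, 61.8 to 75.3 CPM in DAF and 46.6 to 116 CPM in Δ22, and its part in the results was not tested.

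The iLuc libraries did not form a uniform group for the genes described here, since replicates 1 and 2 differed from replicate 3. CCNE1 was at 2.23, 2.56 and 15.5 CPM in iLuc replicates 1, 2 and 3, and CCNE2 at 2.77, 2.52 and 17.4 CPM. CCND2 ran the other way, at 5.75, 8.22 and 2.38 CPM, as did CDKN1B at 68.1, 75.1 and 40.8 CPM and CDKN1C at 1.67, 2.54 and 0.401 CPM. Replicate 3 thus had high cyclin E and low CDKN1B beside its own group. Genes of DNA replication differed in the same libraries, with MCM3 at 214, 228 and 429 CPM, PCNA at 202, 199 and 469 CPM and CDC6 at 53.9, 52.4 and 134 CPM. In iEF it was replicate 2 that stood low, with CCNE1 at 15.7, 5.07 and 12.7 CPM and CCNE2 at 23.7, 8.98 and 19.6 CPM. In bulk RNA a shift in the share of cells in a phase of the cycle and a change in RNA per cell cannot be told apart. Results of the 10 genes that rest on iLuc are given below with and without these libraries. Those of other genes are given with all iLuc libraries only.

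**Figure D1:**
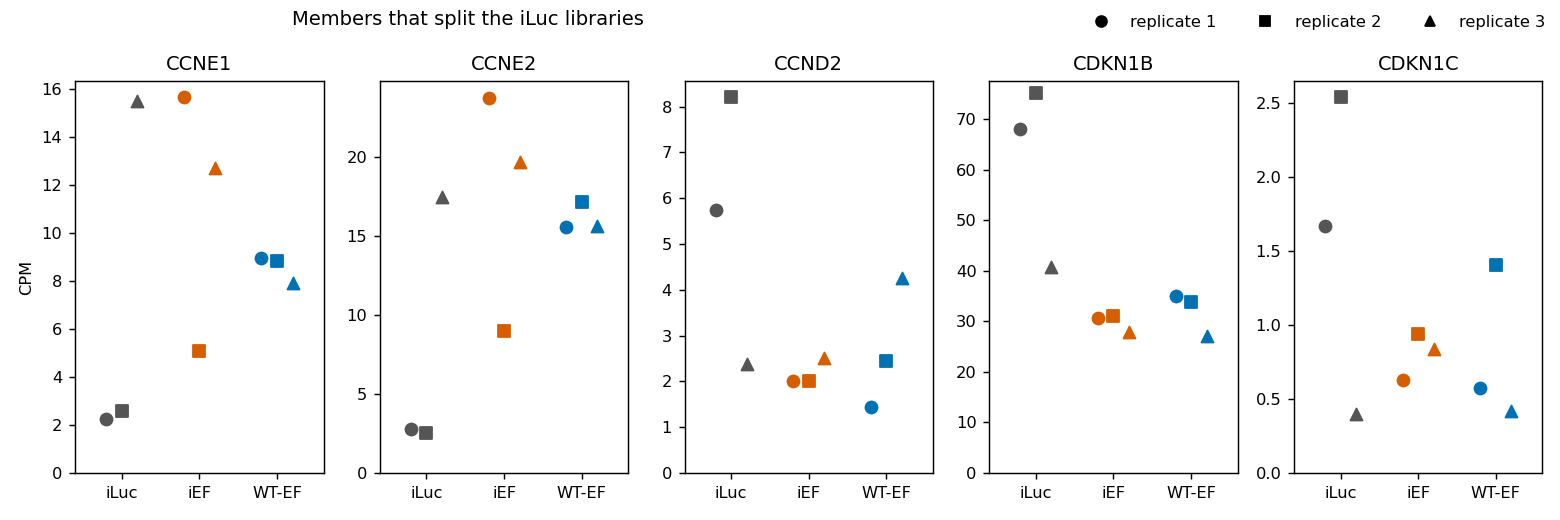
CPM (linear axis from 0) of 5 genes in each iLuc, iEF and WT-EF library, with the marker giving the replicate number. In iLuc, replicate 3 (triangle) had CCNE1 at 15.5 CPM and CCNE2 at 17.4 CPM while replicates 1 and 2 stayed at or below 2.77 CPM, and replicate 3 was the lowest of the 3 for CCND2, CDKN1B and CDKN1C.

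Levels of different genes can be compared only per length. Per kilobase of exon, and as the mean of the 7 group means, CCND1 stood at 382 CPM per kb, far above every other gene of the 10. CDKN1A followed at 38.2 CPM per kb, CDK4 at 16.7 and CDK6 at 14.6. CCNE1 at 3.68, CDKN1B at 3.63 and CCNE2 at 3.60 CPM per kb came next, CCND3 was at 2.82, and CCND2 at 0.366 and CDKN1C at 0.287 CPM per kb were lowest. Per kb of the longest transcript, CDK4 was at 27.7, CDKN1B at 7.74 and CCND3 at 6.79, so the order of the middle genes depends on the length used. CCND1 made up nearly all D-type cyclin RNA in these cells in all 7 groups, with group means between 320.3 CPM per kb in Δ22 and 487 CPM per kb in mut9. CDKN1C had 11 to 115 counts per library and CCND2 33 to 372, so that their differences are the least precise of the set. The spread between conditions followed another order, taken here on group means of log2 CPM rather than of CPM. The highest and lowest group means differed 12.2-fold for CDKN1A, 5.15-fold for CDK6, 3.80-fold for CCNE2, 3.49-fold for CCND2, 3.24-fold for CDKN1C, 2.54-fold for CDKN1B and 2.23-fold for CCNE1. CCND1, CCND3 and CDK4 were the most even, at 1.52-fold, 1.48-fold and 1.19-fold. For each of the other genes iLuc was at 1 end of the range. In the other groups mean CPM ran only from 8.57 to 11.1 for CCNE1, 14.9 to 19.4 for CCNE2 and 23.8 to 32.0 for CDKN1B. That of CCND1 ran from 1525 to 2317 CPM, so this order depends on iLuc.

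**Figure D2:**
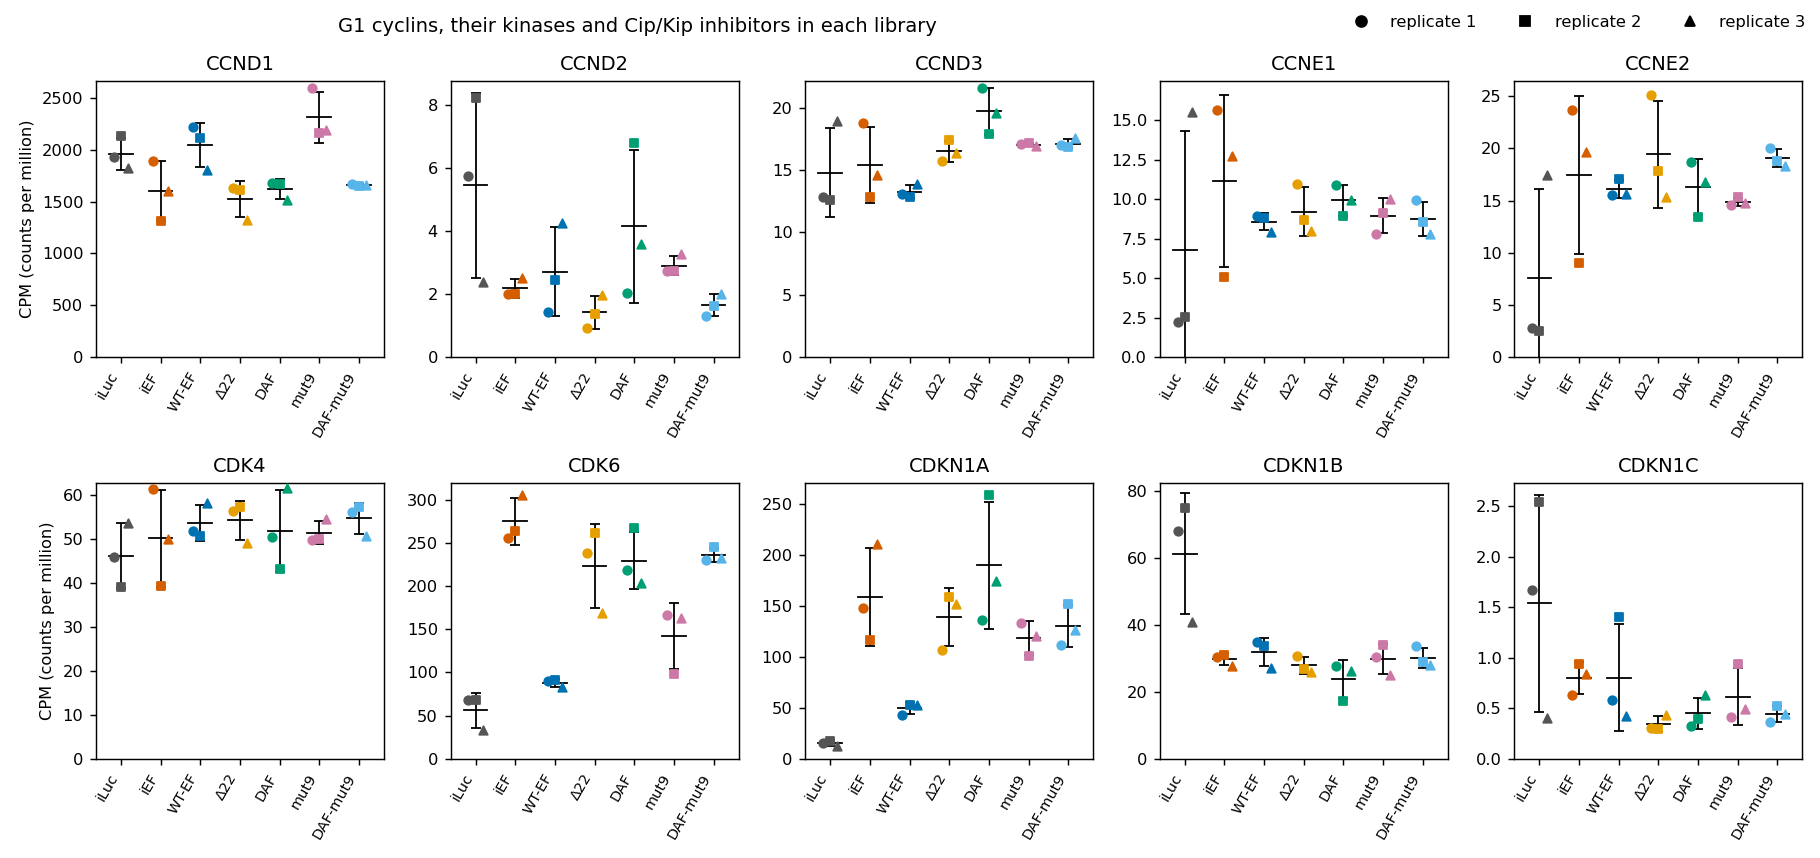
CPM of the 10 genes (linear axes from 0) in each of the 21 libraries by group, with the marker giving the replicate number, the bar the group mean and the whisker 1 SD of 3 libraries. CDK6 and CDKN1A were low in iLuc and WT-EF and high in iEF, Δ22, DAF and DAF-mut9, CCND1 was highest in mut9, and CDK4 stayed between 38.96 and 61.6 CPM throughout.

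Each condition was first compared with iEF, which asks what the endogenous fusion or a construct changed in depleted cells. These 6 comparisons share the 3 iEF libraries. In iLuc, 6 of the 10 genes passed the test, 3 higher (CCND1, CCND2, CDKN1B) and 3 lower (CCNE2, CDK6, CDKN1A), where 41.1% of all genes tested passed, 18.7% higher and 22.4% lower. In WT-EF, 3 passed, CCND1 higher and CDK6 and CDKN1A lower, against 28.3% of all genes, 11.4% higher and 16.9% lower. The iLuc count was 3 without iLuc replicate 2, 3 with iLuc replicates 1 and 2 both left out, and 7 without iLuc replicate 3. In mut9, 2 passed, CCND1 higher and CDK6 lower, against 14.6% of all genes, 6.22% higher and 8.33% lower. None of the 10 passed in Δ22 (2.67% of all genes, 0.881% higher and 1.79% lower), in DAF (7.42%, 3.41% higher and 4.02% lower) or in DAF-mut9 (3.40%, 1.26% higher and 2.14% lower). At an unadjusted p under 0.05 by edgeR those 3 counts were 1, 2 and 0, beside 4276, 5876 and 4544 of the 30549 genes tested. DESeq2 gave 0 calls among the 10 in each. Since such shares of all genes moved in iLuc and WT-EF, the counts there do not set these genes apart. The median log2 difference of the 10 lay between -0.15 and -0.02 in all 6 comparisons, beside -0.03 to 0.02 over all genes tested.

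**Figure D3:**
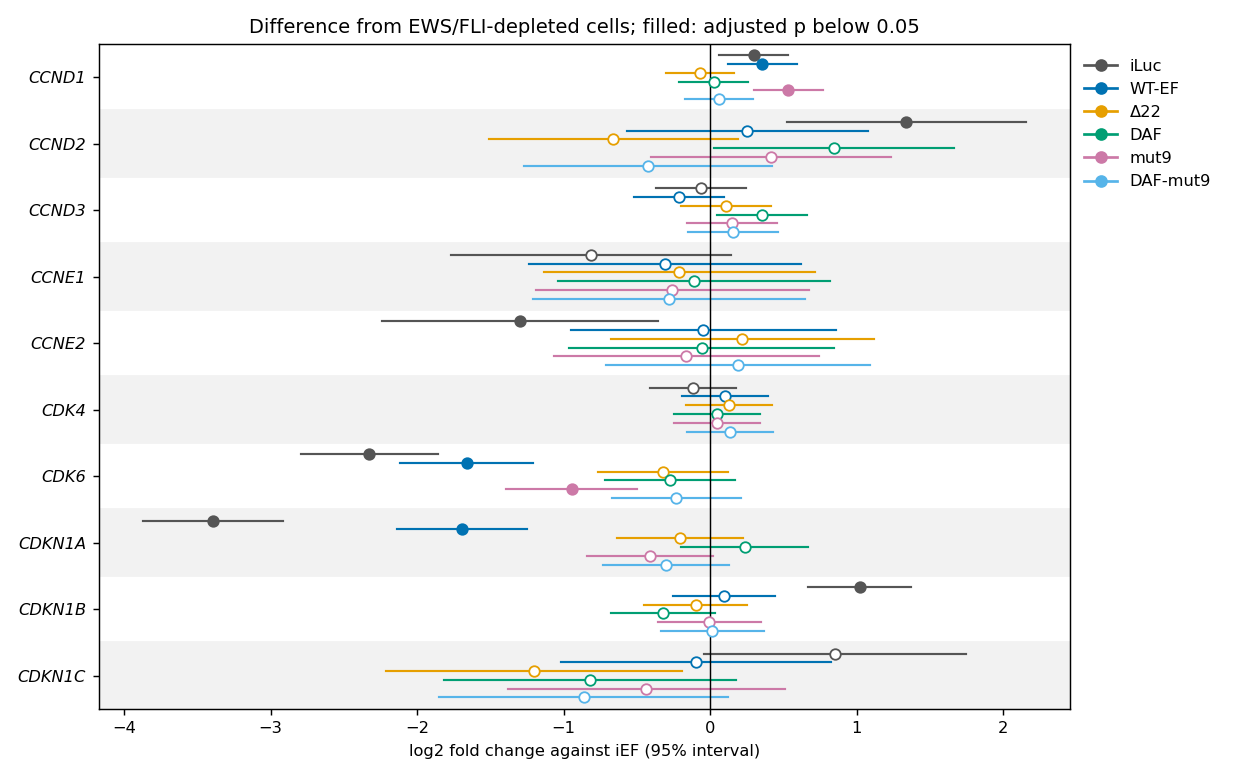
Log2 fold change against iEF with its 95% interval for the 10 genes in the 6 other groups, filled where the edgeR adjusted p was below 0.05 over all genes tested. CDK6 and CDKN1A lie far left of 0 in iLuc and WT-EF, CDK6 alone of these 2 is filled in mut9, and every point of Δ22, DAF and DAF-mut9 is open.

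CCND1 (ENSG00000110092, chromosome 11, 69455924 to 69469242, plus strand, GRCh37), the cyclin that growth signals induce first in G1, was highest with mut9. It was at 1889, 1312 and 1603 CPM in iEF and 2602, 2159 and 2189.7 CPM in mut9, and the groups did not overlap. The log2 fold change of mut9 over iEF was 0.53 ± 0.11 (SE, edgeR adjusted p = 0.0022), positive in 3 of 3 replicate sets and past the threshold in every alternative. iLuc was at 1929, 2133 and 1825 CPM and WT-EF at 2223, 2117 and 1808 CPM. Both groups overlapped iEF, through iEF replicate 1. The log2 fold changes over iEF were 0.30 ± 0.11 for iLuc (edgeR adjusted p = 0.0389) and 0.36 ± 0.11 for WT-EF (edgeR adjusted p = 0.0211). Both calls rested on single libraries. Without iEF replicate 2 they became 0.15 and 0.21 and were lost. The iLuc call was also lost without iLuc replicate 2 (0.22), without iLuc replicate 3 (0.31), with iLuc replicates 1 and 2 both left out (0.28) and with no replicate block (0.29), and the WT-EF call without WT-EF replicate 1 (0.36) or 2 (0.34). Exons of CCND1 share 497 bases with LTO1 on the other strand, and the strand setting of the counting was not stated.

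The 3 groups without a CCND1 call lay close to iEF. CCND1 was at 1630.3, 1617 and 1327 CPM in Δ22, 1685, 1672 and 1514 CPM in DAF and 1671, 1654 and 1662 CPM in DAF-mut9. These libraries lay within or near the iEF range, and the 95% intervals of the log2 difference were -0.30 to 0.16, -0.21 to 0.26 and -0.17 to 0.29. CCND1 was thus the gene of the 10 whose difference from iEF was bounded most tightly in these groups.

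CCND2 (ENSG00000118971, chromosome 12, 4378937 to 4414519, plus strand) and CCND3 (ENSG00000112576, chromosome 6, 41902672 to 42018095, minus strand) are the other D-type cyclins. CCND2 was at 2.01, 2.00 and 2.51 CPM in iEF, so that iLuc replicates 1 and 2 were above all iEF libraries and iLuc replicate 3 was within their range. The log2 fold change of iLuc over iEF was 1.34 ± 0.39 (edgeR adjusted p = 0.0089). It was 1.02 without iLuc replicate 1 and 1.06 without replicate 2, no longer called in either, and -0.20 with both left out. In DAF, CCND2 was also scattered, at 2.05, 6.78 and 3.60 CPM, and its log2 difference from iEF of 0.85 ± 0.39 did not pass (edgeR adjusted p = 0.242). CCND2 shares exon bases with an antisense gene and with a gene on its own strand, so its counts are uncertain. CCND3 was at 18.7, 12.9 and 14.6 CPM in iEF, 21.6, 17.8 and 19.6 CPM in DAF and 13.1, 12.8 and 13.9 CPM in WT-EF. DAF was the highest group and WT-EF the lowest. DAF against iEF was 0.35 ± 0.15 (edgeR adjusted p = 0.176), and it passed when iEF replicate 1, the highest iEF library, was left out (0.53).

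The E-type cyclins act with CDK2 at the end of G1. CCNE2 (ENSG00000175305, chromosome 8, 95891998 to 95908906, minus strand) had a log2 fold change of -1.30 ± 0.45 in iLuc against iEF (edgeR adjusted p = 0.026), while CCNE1 (ENSG00000105173, chromosome 19, 30302898 to 30315219, plus strand) differed by -0.81 ± 0.46 and did not pass (edgeR adjusted p = 0.169). The groups overlapped for both genes, because iLuc replicate 3 lay within the iEF range. Without iLuc replicate 3 the differences were -2.70 for CCNE2 and -2.17 for CCNE1, and both passed. With iLuc replicates 1 and 2 left out they were 0.06 and 0.53, and neither passed. The CCNE2 call was also lost without iLuc replicate 1 (-0.80), iLuc replicate 2 (-0.88), iEF replicate 1 (-0.99) or iEF replicate 3 (-1.33). In the 5 rescue groups CCNE1 was between 7.77 and 10.9 CPM and CCNE2 between 13.4 and 25.2 CPM. No rescue group differed from iEF past the threshold, and the intervals were wide. That of CCNE1 in WT-EF ran from -1.23 to 0.62 on the log2 scale and that of CCNE2 from -0.95 to 0.86. Of the exon bases of CCNE2, 1633 are shared with genes on the other strand, INTS8 among them, so that its counts are uncertain, and CCNE1 shares none.

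CDK4 and CDK6 are the partner kinases of the D-type cyclins, and calls were made for CDK6 only. CDK4 (ENSG00000135446, chromosome 12, 58141510 to 58149796, minus strand) had means of 46.2 ± 7.36 CPM (SD, n = 3) in iLuc, the lowest group, and 54.6 ± 3.47 CPM in DAF-mut9, the highest. On group means of log2 CPM these groups differed 1.19-fold, and no comparison passed the test in any alternative. Its log2 difference from iEF had a 95% interval of -0.41 to 0.18 in iLuc and -0.19 to 0.39 in WT-EF. CDK4 shares 1369 exon bases with TSPAN31 on the other strand, so that its counts are uncertain. CDK6 (ENSG00000105810, chromosome 7, 92234235 to 92465887, minus strand) was at 255, 264 and 306 CPM in iEF, 67.6, 67.9 and 32.7 CPM in iLuc and 89.6, 90.7 and 82.6 CPM in WT-EF. All iLuc and WT-EF libraries were below all iEF libraries, and all iLuc libraries were below all WT-EF libraries. CDK6 was 5.02-fold lower in iLuc than in iEF (log2 fold change -2.33 ± 0.22, edgeR adjusted p = 3.47e-08) and 3.16-fold lower in WT-EF (-1.66 ± 0.22, edgeR adjusted p = 5.63e-06). Leaving out 1 library gave -2.49 to -2.05 for the first and -1.76 to -1.49 for the second, and the iLuc value from replicate 3 alone was -3.03.

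In mut9 CDK6 was at 167, 98.5 and 163 CPM, below every iEF library and above every WT-EF library. It was 1.93-fold lower than in iEF (log2 fold change -0.95 ± 0.21, edgeR adjusted p = 0.00403), a call that held in every alternative. Replicate 2 was the lowest mut9 library, near the WT-EF range. Δ22 at 239, 262 and 169 CPM, DAF at 219, 267 and 203 CPM and DAF-mut9 at 230.0, 245 and 232 CPM did not differ from iEF past the threshold, with 95% intervals of -0.77 to 0.12, -0.72 to 0.17 and -0.67 to 0.21. The order of the group means was iEF, DAF-mut9, DAF, Δ22, mut9, WT-EF and iLuc, from high to low. Among neighbours, the libraries of DAF-mut9, DAF and Δ22 overlapped, while those of iEF and DAF-mut9, Δ22 and mut9, mut9 and WT-EF, and WT-EF and iLuc did not. CDK6 shares 86 exon bases with CDK6-AS1 on the other strand.

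CDKN1A (ENSG00000124762, chromosome 6, 36644237 to 36655114, plus strand), the inhibitor p21, had the widest range of the 10. It was at 148, 117 and 211 CPM in iEF and 14.9, 17.8 and 12.6 CPM in iLuc, a 10.5-fold difference (log2 fold change -3.40 ± 0.23, edgeR adjusted p = 1.82e-10). WT-EF was at 42.7, 52.4 and 53.2 CPM, 3.23-fold below iEF (-1.69 ± 0.21, edgeR adjusted p = 3.16e-06). The iLuc, WT-EF and iEF ranges did not overlap, and both calls held in every alternative, the first at -3.76 from iLuc replicate 3 alone. CDKN1A was at 134, 100.5 and 120.2 CPM in mut9, a log2 difference from iEF of -0.41 ± 0.21 that did not pass (edgeR adjusted p = 0.22) with libraries that overlapped iEF. It passed, at -0.65, without iEF replicate 2, the lowest iEF library. Δ22 was at 107, 159 and 152 CPM, DAF at 136, 259 and 175 CPM and DAF-mut9 at 111, 152 and 127 CPM. All 3 overlapped iEF, and none passed, with 95% intervals of -0.64 to 0.22, -0.20 to 0.67 and -0.73 to 0.13. Every library of the 5 groups other than iLuc and WT-EF thus held at least 100.5 CPM, above the highest WT-EF library. The order of the means was DAF, iEF, Δ22, DAF-mut9, mut9, WT-EF and iLuc, and the libraries of neighbouring groups overlapped except at the steps from mut9 to WT-EF and from WT-EF to iLuc.

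**Figure D4:**
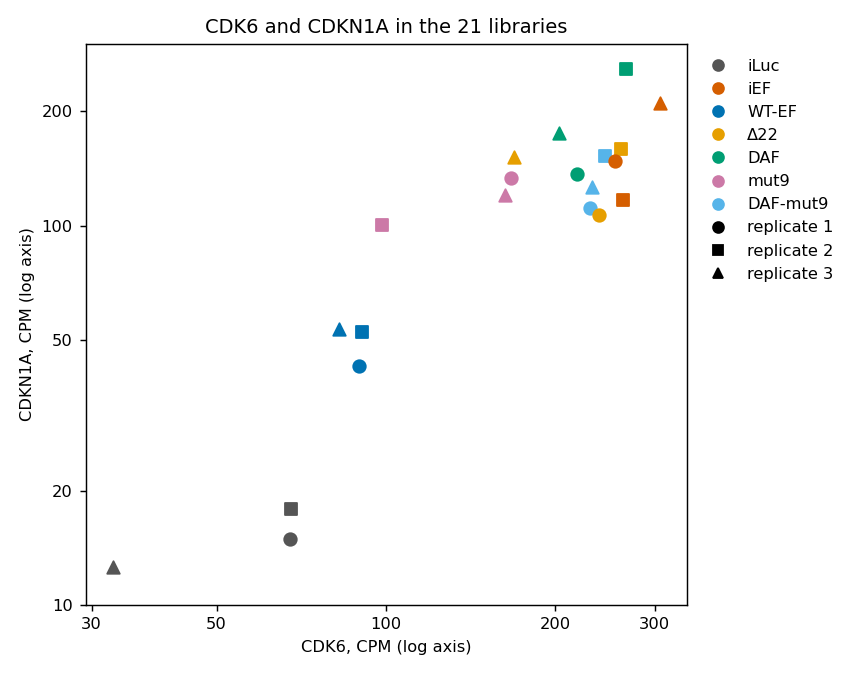
CDKN1A against CDK6 in CPM (both axes logarithmic), 1 point for each of the 21 libraries, coloured by group and with the marker giving the replicate number. The iLuc libraries sit at the lower left, the WT-EF libraries between 82.6 and 90.7 CPM of CDK6, and the mut9 libraries at lower CDK6 than the other constructs for CDKN1A levels that those constructs share.

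The promoters of CDKN1A and CDK6 are shown because these were the genes that moved most with the fusion. EWS/FLI is an ETS-type factor, whose binding sites hold the core GGAA. The stretches are the bases just before the RefSeq start sites in GRCh38.p14, CDKN1A at chr6:36678464-36678709 on the plus strand and CDK6 at chr7:92836574-92836823 on the minus strand, written 5′ to 3′ with GGAA on either strand in capitals.
CDKN1A: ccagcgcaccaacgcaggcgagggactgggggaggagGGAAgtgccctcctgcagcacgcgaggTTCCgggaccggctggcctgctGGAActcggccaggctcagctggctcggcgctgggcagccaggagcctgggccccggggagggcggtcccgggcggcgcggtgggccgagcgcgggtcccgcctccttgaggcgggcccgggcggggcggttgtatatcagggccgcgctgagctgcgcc
CDK6: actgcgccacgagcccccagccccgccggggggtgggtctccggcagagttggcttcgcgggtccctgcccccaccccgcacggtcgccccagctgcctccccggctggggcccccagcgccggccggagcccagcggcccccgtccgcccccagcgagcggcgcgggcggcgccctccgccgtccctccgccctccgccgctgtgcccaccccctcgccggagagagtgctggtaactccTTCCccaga
GGAA was found 3 times before CDKN1A and 1 time before the CDK6 start shown, with both strands searched. The table lists another CDK6 start, before which GGAA was found 2 times. It occurs in 92.7% of the 35093 promoter stretches of 250 bases in the RefSeq table, with a median of 3 matches, so its presence does not set these genes apart. The longer ETS site CCGGAAGT, which contains GGAA, is in 3.43% of all stretches, and the tandem GGAAGGAA, the shortest form of the repeat that EWS/FLI is known to bind, in 3.06%. Neither was found in the stretches of the 6 genes of the 10 that the table holds, CCND3, CCNE1, CDK4, CDK6, CDKN1A and CDKN1B. CCND1, CCND2, CCNE2 and CDKN1C had no entry. Of the 250 bases before the CDKN1A start, 100 lie in annotated exons, those of the antisense transcript DINOL among them, and the bases nearest the start, in an exon of CDKN1A itself, are left out of the print. DINOL shares 146 bases with CDKN1A exons.

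CDKN1B (ENSG00000111276, chromosome 12, 12838432 to 12875303, plus strand), the inhibitor p27, ran opposite to CDKN1A in iLuc. It was at 30.6, 31.1 and 27.8 CPM in iEF, below all 3 iLuc libraries, and iLuc was 2.03-fold higher (log2 fold change 1.02 ± 0.17, edgeR adjusted p = 4.7e-05). The 3 iLuc libraries were also above all 15 rescue libraries, the highest of which was 34.96 CPM. The size of the difference varied between the iLuc libraries, and it was 0.56 from replicate 3 alone, still past the threshold. WT-EF was at 34.96, 33.9 and 27.2 CPM and did not differ from iEF past the threshold (0.09 ± 0.17, edgeR adjusted p = 0.74), nor did the other 4 constructs, whose log2 differences ran from -0.32 in DAF to 0.02 in DAF-mut9. CDKN1C (ENSG00000129757, chromosome 11, 2904443 to 2907005, minus strand), the inhibitor p57 and an imprinted gene, was at 0.63, 0.939 and 0.838 CPM in iEF, and iLuc differed by 0.85 ± 0.43, which did not pass (edgeR adjusted p = 0.122). The call appeared without iLuc replicate 3 (1.37), and from replicate 3 alone the value was -0.96. In Δ22 CDKN1C was at 0.302, 0.298 and 0.429 CPM, below every iEF library, but its log2 difference of -1.20 ± 0.48 did not pass (edgeR adjusted p = 0.24). Neither CDKN1B nor CDKN1C shares exon bases with another gene.

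WT-EF was set against iLuc to ask how near the rescue came to cells that kept the endogenous fusion. CDK6, CDKN1A and CDKN1B passed, 3 of the 10 against 18.3% of all genes. CDKN1A was 3.26-fold higher in WT-EF (log2 fold change 1.70 ± 0.22, edgeR adjusted p = 8.02e-06), higher in 3 of 3 replicate sets, and this held in every alternative, at 2.09 against iLuc replicate 3 alone. CDKN1B was 1.90-fold lower (-0.93 ± 0.17, edgeR adjusted p = 0.000457), and against iLuc replicate 3 alone it was -0.44 and not called. CDK6 was higher by 0.67 ± 0.21 (edgeR adjusted p = 0.0347). The value was 1.39 against iLuc replicate 3 alone. The call was lost with no replicate block (0.64), without iLuc replicate 3 (0.39) and without WT-EF replicate 1 (0.71), 2 (0.70) or 3 (0.67). WT-EF thus lay between iEF and iLuc for CDKN1A, below iEF and above iLuc by similar log2 distances. Without iLuc replicate 3, 6 genes passed. CDK6 was lost, and CCND2 (-1.58), CCNE1 (1.83), CCNE2 (2.62) and CDKN1C (-1.42) were gained. CCND2 was also gained without WT-EF replicate 3 (-1.48).

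Constructs were then compared with each other, because the calls against iEF do not by themselves show that constructs differ. WT-EF against Δ22 asks what the EWS domain adds. CCND1 (0.43 ± 0.11, edgeR adjusted p = 0.00711) was higher in WT-EF, and CDK6 (-1.34 ± 0.22, edgeR adjusted p = 8.03e-05) and CDKN1A (-1.49 ± 0.21, edgeR adjusted p = 1.77e-05) were lower, 3 of 10 against 25.2% of all genes. All 3 calls held with each library left out in turn, and the groups did not overlap for any of the 3. The share of all genes that did not overlap was not counted, here or in the comparisons below. DAF against WT-EF asks about the tyrosines in the full-length domain. CDKN1A was 3.80-fold higher in DAF (1.93 ± 0.21, edgeR adjusted p = 1.08e-06), CDK6 2.61-fold higher (1.39 ± 0.22, edgeR adjusted p = 5.84e-05) and CCND3 1.48-fold higher (0.57 ± 0.15, edgeR adjusted p = 0.00668), and CCND1 was lower (-0.33 ± 0.11, edgeR adjusted p = 0.0338). These are 4 of 10, against 24.9% of all genes. The DAF and WT-EF libraries did not overlap for any of the 4, which were picked by the test on these same libraries. The CCND1 call was lost with no replicate block (-0.34) and without WT-EF replicate 1 (-0.34) or 2 (-0.32), or DAF replicate 1 (-0.31), 2 (-0.36) or 3 (-0.34). Without DAF replicate 3, CDKN1B passed (-0.63). DAF against Δ22 gave no call among the 10, against 0.972% of all genes. At an unadjusted p under 0.05 by edgeR there were 2 of the 10, beside 2577 of the 30549 genes tested. DESeq2 gave 1 call among the 10, CCND2. The log2 difference of DAF from Δ22 had a 95% interval of -0.39 to 0.49 for CDK6, 0.01 to 0.87 for CDKN1A and -0.14 to 0.33 for CCND1.

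mut9 against WT-EF asks what the deleted part of the EWS domain does. CDKN1A was 2.43-fold higher in mut9 (1.28 ± 0.21, edgeR adjusted p = 0.00071), the only call among the 10, against 6.15% of all genes, and it held in every alternative. CDK6 was higher by 0.71 ± 0.21 and just missed the threshold (edgeR adjusted p = 0.0523). It passed, at 0.99, without mut9 replicate 2. CCND1 differed by 0.18 ± 0.11, with a 95% interval of -0.06 to 0.41. mut9 against DAF set the shortened domain beside the substituted one. CCND1 was 1.42-fold higher in mut9 (0.51 ± 0.11, edgeR adjusted p = 0.00713), the only call, against 6.61% of all genes, and it held in every alternative. CDK6 (-0.67 ± 0.21, edgeR adjusted p = 0.0665) and CDKN1A (-0.65 ± 0.21, edgeR adjusted p = 0.0691) were on the other side of the threshold, each lower in mut9 in 3 of 3 replicate sets. CDK6 passed without mut9 replicate 3 (-0.88) and CDKN1A without DAF replicate 1 (-0.80) or mut9 replicate 1 (-0.87). DAF-mut9 against mut9 asks about tyrosines in the short domain. CDK6 was 1.64-fold higher in DAF-mut9 (0.72 ± 0.21, edgeR adjusted p = 0.0365) and CCND1 1.39-fold lower (-0.47 ± 0.11, edgeR adjusted p = 0.00786), 2 of 10 against 9.83% of all genes. The CDK6 call was lost without mut9 replicate 1 (0.83) or 2 (0.46) or DAF-mut9 replicate 1 (0.77), 2 (0.72) or 3 (0.65), and the CCND1 call without mut9 replicate 1 (-0.41) or DAF-mut9 replicate 1 (-0.42). The libraries of the 2 groups did not overlap for either gene, both of them picked by the test on these same libraries. DAF-mut9 against Δ22 gave 0 calls over all genes (0%), with 671 genes at an unadjusted p under 0.05 by edgeR, and none of the 10 had an unadjusted p under 0.05 by edgeR or an adjusted p under 0.05 by DESeq2. The 95% intervals were -0.35 to 0.54 for CDK6 and -0.52 to 0.34 for CDKN1A.

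Whether the substitutions had different effects in the full-length and the shortened domain was tested as a difference of the 2 steps, and CDKN1A was the 1 gene of the 10 that passed, against 3.33% of all genes. DAF and DAF-mut9 do not carry substitutions at identical tyrosines. The steps also started from different CDKN1A levels. The log2 difference from iEF was -1.69 ± 0.21 in WT-EF and -0.41 ± 0.21 in mut9, the latter not called. The step from WT-EF to DAF was 1.93 ± 0.21 on the log2 scale and the step from mut9 to DAF-mut9 was 0.11 ± 0.21, a difference of -1.81 ± 0.29 (edgeR adjusted p = 0.00102), of the same sign in 3 of 3 replicate sets. For CDK6 the steps were 1.39 ± 0.22 and 0.72 ± 0.21, and their difference of -0.67 ± 0.30 did not pass (edgeR adjusted p = 0.298). CCND1 fell at both steps, by 0.33 ± 0.11 and 0.47 ± 0.11, and the difference of -0.14 ± 0.16 did not pass (edgeR adjusted p = 0.777). CCND2 (-1.43 ± 0.56, edgeR adjusted p = 0.208) and CCND3 (-0.56 ± 0.21, edgeR adjusted p = 0.179) did not pass either, although both differences, like that of CDK6, were negative in 3 of 3 replicate sets and had 95% intervals below 0. CCND2 and CDK6 passed without a low-count filter, and CCND3 when only the groups compared were fitted.

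The other genes of the pathway were described by lists. Of 9 genes for INK4 inhibitors, CDK2 and its activators, CDKN2A had 2 counts and CDKN2B 3 counts over all 21 libraries, and 7 were tested. In iLuc 2 of these were higher than in iEF and 1 lower, and in WT-EF also 2 higher and 1 lower, with no call in the other 4 groups. Of all genes, 18.7% were higher and 22.4% lower in iLuc, and 11.4% and 16.9% in WT-EF. In Δ22, DAF, mut9 and DAF-mut9, 2.67%, 7.42%, 14.6% and 3.40% of all genes were called. CDK7, the catalytic subunit of the CDK-activating kinase, was lower in iLuc (-0.81 ± 0.14) and WT-EF (-0.50 ± 0.14), and CDKN2C, an INK4 inhibitor, higher in both (0.54 ± 0.16 and 0.50 ± 0.16). CCNH, the cyclin partner of CDK7, was higher in iLuc (0.40 ± 0.11), and CDC25A, a phosphatase that activates CDK2, higher in WT-EF (0.79 ± 0.27). The median log2 difference of the list was 0.10 in iLuc and 0.13 in WT-EF, beside 0.0061 and -0.0025 over all genes.

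Of 13 pocket proteins and E2F factors, through which CDK4 and CDK6 act, 5 were higher and 1 lower in iLuc, and 4 higher and 1 lower in WT-EF. In iLuc 18.7% of all genes were higher and 22.4% lower, and in WT-EF 11.4% and 16.9%. In either direction the shares were 41.1% and 28.3%. In mut9, DAF and DAF-mut9 1 gene each was called, beside 14.6%, 7.42% and 3.40% of all genes. In Δ22 2.67% of all genes were called. The median was 0.28 in iLuc and 0.25 in WT-EF. E2F2, an activator, was higher in iLuc (1.84 ± 0.26), WT-EF (1.73 ± 0.26) and mut9 (1.04 ± 0.26), the 1 call of the list in mut9. It split the iLuc libraries, at 27.0, 29.5 and 70.2 CPM, all above the iEF range of 9.51 to 13.6 CPM. E2F7, a repressor that E2F factors themselves induce, was the lower gene in iLuc (-1.75 ± 0.26) and WT-EF (-0.75 ± 0.25, not the same way in all 3 replicate sets). E2F5 was higher in iLuc (0.63 ± 0.15) and lower in DAF (-0.81 ± 0.16) and DAF-mut9 (-0.77 ± 0.16), the 1 call in each of those groups, and no gene was called in Δ22. TFDP2, a dimer partner of E2F, and RBL1, the pocket protein p107, were among those higher in WT-EF (0.56 ± 0.11 and 0.38 ± 0.13).

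Of 8 genes that degrade G1 cyclins and inhibitors, 3 were higher and 1 lower in iLuc, 2 were higher in WT-EF and 1 in Δ22. Of all genes, 18.7% were higher and 22.4% lower in iLuc, 11.4% higher in WT-EF and 0.881% higher in Δ22. In either direction 41.1% of all genes passed in iLuc, 28.3% in WT-EF and 2.67% in Δ22. No gene of the list was called in DAF, mut9 or DAF-mut9, beside 7.42%, 14.6% and 3.40% of all genes. The median was 0.14 in iLuc and 0.06 in WT-EF. SKP2, the ubiquitin ligase subunit that targets the p27 and p21 proteins, was at 46.9, 31.00 and 29.9 CPM in iEF, 129, 122 and 124 CPM in iLuc and 67.9, 70.97 and 72.1 CPM in WT-EF. These 3 groups did not overlap, and SKP2 was even across the iLuc libraries that CDKN1B and cyclin E split. Its log2 fold change over iEF was 1.80 ± 0.16 in iLuc (edgeR adjusted p = 8.82e-09) and 0.98 ± 0.16 in WT-EF (edgeR adjusted p = 5.68e-05). CKS1B, its cofactor, was higher in both (0.52 ± 0.12 and 0.34 ± 0.12), FBXO4, which targets cyclin D1, in iLuc (0.52 ± 0.16) and FBXW7, which targets cyclin E, in Δ22 (0.36 ± 0.09). The gene lower in iLuc was AMBRA1 (-0.29 ± 0.09), the receptor through which D-type cyclins are degraded.

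Of 10 genes of S phase and mitosis, which act after the G1 step, 8 were higher in iLuc and 3 in WT-EF, none was lower, and none was called in the other 4 groups. Of all genes, 18.7% were higher and 22.4% lower in iLuc, and 11.4% were higher and 16.9% lower in WT-EF. The shares of all genes called either way in Δ22, DAF, mut9 and DAF-mut9 were 2.67%, 7.42%, 14.6% and 3.40%. The median was 0.55 in iLuc, 0.39 in WT-EF and 0.24 in mut9. CCNA2, the cyclin of S phase, was higher by 0.91 ± 0.15 in iLuc and 0.43 ± 0.15 in WT-EF, and MCM2, part of the replicative helicase, by 0.80 ± 0.17 and 0.66 ± 0.17. TOP2A was higher in iLuc (0.57 ± 0.17) and CDK1, the mitotic kinase, in WT-EF (0.47 ± 0.14). The summed level of the 10 was 2387 to 3330 CPM in iLuc and 1510 to 2502 CPM in iEF, so that the groups overlapped. iLuc replicates 1 and 2, whose cyclin E RNA was lowest, were at 2786 and 2387 CPM, above iEF replicates 2 and 3 at 1904 and 1510.1 CPM. The other iEF library, replicate 1 at 2502 CPM, was above iLuc replicate 2 and below iLuc replicate 1.

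The cyclin and the inhibitor with the widest range of group means of log2 CPM were taken. Genes with the most similar pattern were sought over those 7 group means, among 9212 genes with a mean of at least 10 CPM. For CCNE2 they were ZNF365 (Pearson r = 0.9964), GNG2 (0.9933) and SUMO3 (0.9926), and for CDKN1A they were MIR22HG (0.9984), SEC61A1 (0.9984) and CHPF2 (0.9971). These values describe 7 points that share libraries and replicate sets, and those of CCNE2 rest on iLuc, whose mean hides the split of its libraries.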

How the data were processed

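RNA-seq was done on 21 libraries of A673 cells, 7 groups with 3 replicates each. Per the labels, libraries were made with a ScriptSeq kit, and the submitters' processing notes name STAR 2.5.1b, HTSeq, DESeq2 and hg19. The deposited table holds raw counts per gene from the authors' HTSeq step, and its 5 summary lines are all 0. A second deposited table holds signal values, which the authors made from those counts by adjusting for replicate set with ComBat, and it entered 1 alternative only. Another table holds the authors' own comparisons with iEF (fold changes and p-values) and was not used. How strand was set and which annotation release was counted are not given in the sources used here. Total counts were 32.9 to 46.2 M per library.

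Groups came from the sample titles. The lowest chi-square per degree of freedom between replicates was 15.7 over 21 pairs, so that no library was counted as a repeat of another. Genes whose mean count per library was 1 or more (30549 of 57820) were tested with the quasi-likelihood test of edgeR 4.0.16 in R 4.3.3, with TMM scaling, all 21 libraries and the model group plus replicate set, since the authors adjusted for replicate set with ComBat. P-values were adjusted by Benjamini-Hochberg over all genes tested, with a threshold of 0.05, and apply to 6 comparisons with iEF, 8 direct comparisons and 1 difference of differences. Standard errors came from the estimate and its F statistic, and intervals are 95%. CPM are descriptive. The scripts were tested on simulated counts.

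Exon lengths and overlaps came from GENCODE 44 lifted to GRCh37, and promoters from a RefSeq table of GRCh38.p14. Alternatives used RLE scaling, other low-count filters, DESeq2 1.42.0, limma 3.58.1 on ComBat-adjusted values, only the groups compared, no replicate block, and each library left out. The 10 genes are a set defined by name, and they and the lists were chosen with earlier results of these data known. Of each list, up to 3 genes were named per comparison, those with the largest change among called genes whose sign was equal in the 3 replicate sets. AMBRA1 in iLuc, E2F7 in WT-EF, and the levels of MCM3, PCNA, CDC6, SKP2 and E2F2 by library were added after their values were seen. Another list of the pathway and 1 marker are not reported here.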

Additional observations from a re-analysis of the deposited data

Results flagged for a closer look

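The effect of the tyrosine substitutions on CDKN1A was not equal in the full-length and in the shortened domain, with a log2 difference of -1.81 ± 0.29 (edgeR adjusted p = 0.00102, tested as an interaction term), with -1.94, -1.70 and -1.64 in the 3 replicate sets and -2.00 to -1.54 when 1 library was left out. The DAF libraries held 136, 259 and 175 CPM of CDKN1A and the WT-EF libraries 42.7, 52.4 and 53.2 CPM. The mut9 libraries held 134, 100.5 and 120.2 CPM, and the DAF-mut9 libraries 111, 152 and 127 CPM, so that these groups overlapped. The forms without substitutions differed in CDKN1A to begin with. The log2 difference from iEF was -1.69 ± 0.21 in WT-EF and -0.41 ± 0.21 in mut9, the latter not called. Of all genes tested, 3.33% passed this test.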

How the results depend on the processing

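With iLuc replicates 1 and 2 left out, an alternative chosen after seeing the data, 3 of the 10 genes passed in iLuc against iEF. The log2 difference of iLuc from iEF then changed sign, to -0.20 for CCND2, 0.53 for CCNE1, 0.062 for CCNE2 and -0.96 for CDKN1C, and that of WT-EF from iLuc became 0.44, -0.84, -0.11 and 0.92. Without a low-count filter the counts were 1 for Δ22 and 1 for DAF against iEF, 6 for WT-EF against iLuc, 2 for mut9 against WT-EF, 3 for mut9 against DAF, 2 for DAF against Δ22 and 5 for WT-EF against Δ22, and the difference of differences passed for CCND2 (-1.42) and CDK6 (-0.65) too. DESeq2 gave 2 for mut9 against WT-EF, 3 for mut9 against DAF and 1 for DAF against Δ22. Fitting only the groups compared gave 3 for mut9 against WT-EF, 4 for DAF-mut9 against mut9, 1 for DAF against Δ22 and 5 for WT-EF against Δ22, and -0.56 for the difference of differences of CCND3, which then passed. For mut9 against DAF the filterByExpr filter gave 3 and ComBat with limma 2. The cause was not tested for any of these. Leaving out 1 library gave 3 to 7 for iLuc, 2 to 3 for WT-EF, 0 to 1 for DAF, 2 to 3 for mut9 and 0 for Δ22 and DAF-mut9 against iEF. It gave 2 to 6 for WT-EF against iLuc, 1 to 2 for mut9 against WT-EF, 3 to 4 for DAF against WT-EF, 1 to 2 for mut9 against DAF, 0 to 2 for DAF-mut9 against mut9, 3 for WT-EF against Δ22, and 0 for DAF and DAF-mut9 against Δ22. The difference of differences, never called for these genes, ran from -0.39 to 0.027 for CCNE1 (0.0039 without DAF-mut9 replicate 3) and from -0.066 to 0.83 for CDKN1C. Per kb of the longest transcript, the levels were 429 CPM for CCND1, 6.79 for CCND3, 4.75 for CCNE2, 27.7 for CDK4, 50.5 for CDKN1A and 7.74 for CDKN1B.

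With no replicate block, 5 genes passed for iLuc, 3 for WT-EF and 2 for mut9 against iEF, 2 for WT-EF against iLuc and 3 for DAF against WT-EF, and the other counts did not change. Libraries that share a replicate number correlated from -0.204 to 0.669 in their deviations from the group means (median 0.168, 41 of 63 pairs over 0.1, 9212 genes), and libraries with different numbers had a median of -0.090 (23 of 126 over 0.1). Not every pair with a shared number passed 0.1. The authors' ComBat step treated the replicate sets as batches, which is why the block is part of the model.

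In the comparisons of 2 groups, 25 gene and comparison pairs passed, of which 16 did so in every alternative and 2 changed sign in one, CCND2 and CCNE2 in iLuc against iEF. The difference of differences of CDKN1A, the 1 call of that kind, also passed in every alternative. Of 150 pairs with the difference of differences included, 99 passed in none, 55 of which changed sign in some alternative. Depth limited CDKN1C (11 to 115 counts) and CCND2 (33 to 372) most.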
